A study of Homo sapiens with 6 samples.

Results

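The endoplasmic reticulum folding and stress genes described here are 42 named genes in 5 roles, which are chaperones, disulfide isomerases, degradation factors, translocation factors and stress sensors. They were chosen by name, with earlier results of these data known. A probe set that the platform annotation gives to a single gene was present for 39 of the 42, among 18404 such genes in all. PDIA3, TXNDC5 and SEC61G had none and are not analysed here. The cells were HaCaT, a spontaneously immortalised line of human keratinocytes, in which a lentivirus delivered a short hairpin RNA against TP63 (shTP63, 3 arrays) or a control vector (shControl, 3 arrays), with RNA taken 72 hours later. All 6 samples thus share the line and a lentiviral treatment, and the labels name neither the hairpin sequence nor separate cultures. The p-values therefore weigh differences against sample-to-sample spread that could be technical in origin. TP63 encodes p63, a transcription factor of basal epidermal cells, and its own level is not analysed here, so each direction rests on the labels.

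Secreted and membrane proteins enter the endoplasmic reticulum through the SEC61 channel, fold there with the help of chaperones and disulfide isomerases, and are handed back to the cytosol for destruction when folding fails. A load of unfolded protein is sensed by the membrane proteins IRE1 (gene ERN1), ATF6 and PERK (gene EIF2AK3), which start the unfolded protein response. IRE1 activates XBP1 by splicing its mRNA, ATF6 is cut in the Golgi to release a transcription factor, and PERK slows translation and raises ATF4. In keratinocytes this compartment makes adhesion and matrix proteins and the contents of lamellar bodies, and it serves as a calcium store.

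Most of these genes were higher in shTP63. Of the 39 measured, 33 rose (84.6%) and 2 fell (5.13%) at an adjusted p under 0.05 in limma, and 4 did not pass. Among all genes tested 41.5% passed by the same rule, 16.4% as higher and 25.1% as lower. That split moved with the scaling, to 9.68% higher and 43.1% lower with each array centred on its median, where 27 of the 39 rose and 3 fell, and to 20.1% higher and 19.9% lower after cyclic loess, where 34 rose and 2 fell. The median difference, shTP63 minus shControl, was 0.34 on the log2 scale, or 1.27-fold, against -0.01 over all genes tested. The rises were modest, from 0.18 to 0.87 on the log2 scale (1.13-fold to 1.82-fold), and 5 of the 39 genes reached 1.5-fold. Over all genes tested 797 of 18404 changed by at least 1.5-fold in either direction. Chaperones and disulfide isomerases had the larger medians, 0.48 and 0.46, whereas translocation factors had 0.29 and degradation factors 0.23. The 4 stress sensors had a median of 0.39. HERPUD1 and SEC61B fell, and DNAJB9, ERP29, DERL3 and ERN1 did not pass.

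**Figure D1:**
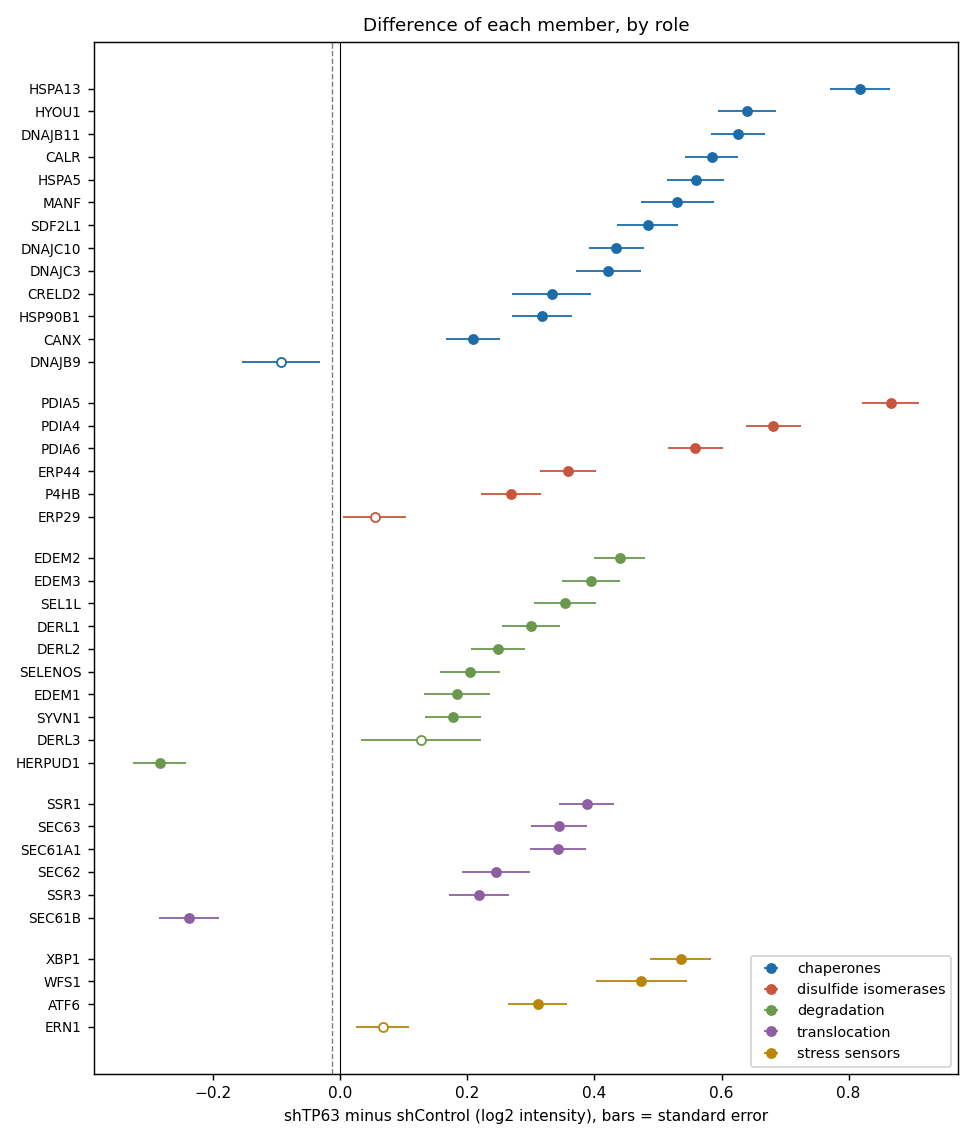
Difference of each of the 39 measured genes between shTP63 and shControl on the log2 intensity scale, grouped by role. Points are limma estimates with bars of 1 standard error, filled where the adjusted p was under 0.05, and the dashed line is the median of all genes tested (-0.01). The 33 filled points right of 0 run from 0.18 to 0.87, and HERPUD1 and SEC61B are the 2 filled points left of 0.

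The median level of the 39 genes was 10.86, 10.91 and 10.92 on the 3 shTP63 arrays, against 10.52, 10.62 and 10.57 on the 3 shControl arrays (log2 intensity). No shTP63 array fell within the range of the shControl arrays. Over single genes the 3 shTP63 values all lay above the 3 shControl values in 34 of 39, as they did in 20.9% of all genes tested, and all lay below in 2, as in 30.4% of all genes.

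These genes are bright on the array, and bright genes tended to be lower in shTP63. When all genes were ranked by mean level and cut into 5 equal bins, 28 of the 39 lay in the brightest bin. Among all genes of that bin 25.3% were called higher and 44% lower, and their median was -0.10. Of the 28, 25 rose and 2 fell. The next bin held 5, all of which rose, against 18.5% of its genes. As a measure of background, 340 olfactory receptor genes were taken, whose mean levels had a 95th percentile of 6.76, and each measured member was brighter than that.

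**Figure D2:**
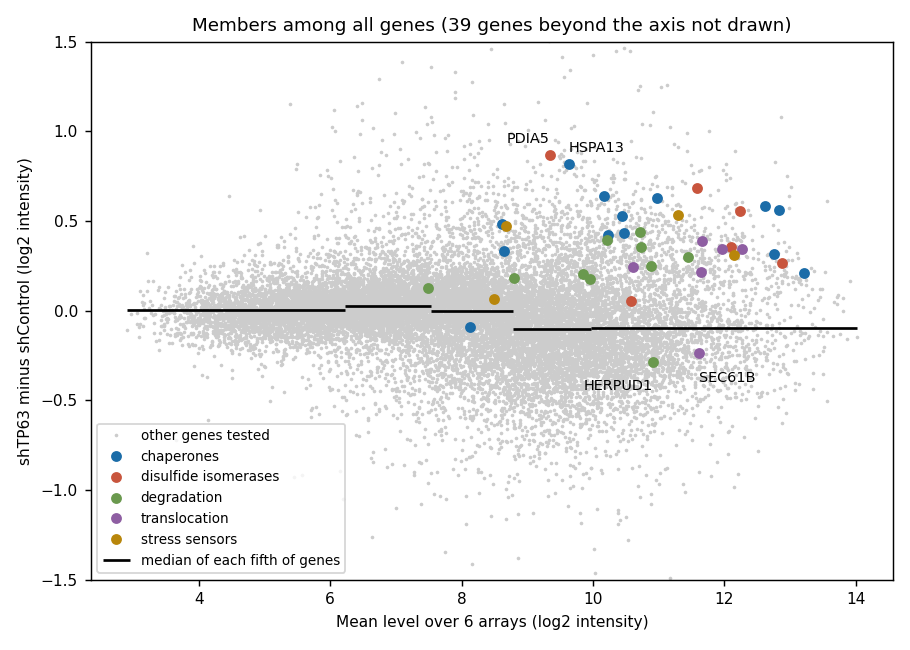
Mean level over the 6 arrays against the difference shTP63 minus shControl, both in log2 intensity, for all genes tested (grey) and for the 39 measured genes coloured by role. Black lines are the medians of 5 equal bins of genes, which lie at -0.10 in the brightest bin, while most coloured points in that bin lie above 0.

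Several promoters in the group carry a stress element, a pair of short motifs at fixed spacing known from promoters of chaperone genes. The windows searched run from 250 bases before to 50 bases after a gene's start (RefSeq, GRCh38.p14), and 39 of the 42 genes had at least 1. The element ERSE, which is CCAAT and CCACG with any 9 bases between them, was looked for on both strands. It matched in 7 of these 39 genes (17.9%), against 0.0916% of the 27305 genes with a window. By window it matched in 9 of their 49 (18.4%), against 0.0769% of all 35116 windows. Several of the 9 are overlapping CANX windows that hold the same site. The shorter ERSE-II, which is ATTGG and CCACG with any 1 base between them, on either strand, matched in 3 genes, or 6.12% of windows against 0.0541%. Among these genes no ERSE match overlapped an ERSE-II match. The motifs were defined from genes of this kind, so the match describes the group and is not independent of how it was chosen. The sequences below are shown because they cover both the genes that rose and HERPUD1, which fell, and each runs 5′ to 3′ on the gene's own strand with the motif in capitals (for ERSE its outer parts, with the spacer in lower case).
HSPA5, chr9:125241376-125241424, minus strand: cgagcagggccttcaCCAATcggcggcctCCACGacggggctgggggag
PDIA6, chr2:10812838-10812886, minus strand: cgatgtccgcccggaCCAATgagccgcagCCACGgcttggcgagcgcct
XBP1, chr22:28800588-28800636, minus strand: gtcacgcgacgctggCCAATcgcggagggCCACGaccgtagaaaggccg
HSP90B1, chr12:103930201-103930249, plus strand: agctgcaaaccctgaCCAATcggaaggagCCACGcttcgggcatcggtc
CALR, chr19:12938369-12938417, plus strand, motif reversed: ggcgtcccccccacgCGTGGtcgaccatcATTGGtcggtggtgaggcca
HYOU1, chr11:119057365-119057405, minus strand, ERSE-II reversed: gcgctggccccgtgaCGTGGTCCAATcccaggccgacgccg
SDF2L1, chr22:21642099-21642139, plus strand, ERSE-II reversed: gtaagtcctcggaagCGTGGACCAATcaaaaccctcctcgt
HERPUD1, chr16:56932010-56932050, plus strand, ERSE-II: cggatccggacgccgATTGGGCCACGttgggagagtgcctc

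CANX and CRELD2 also had an ERSE match, HSP90B1 had a further one in reverse, and HYOU1 had a further ERSE-II. The first HYOU1 ERSE-II overlaps a match to TGACGTGG, a core of the element UPRE, which also matched in DNAJC10, SEC62, SSR3 and TXNDC5 (5 of 39 genes, or 10.2% of windows against 0.729% of all windows, both strands). The UPRE core also matched in 4 of the 74 genes with a window in the further pathway lists described below (4.08% of windows). Of the 10 genes with an ERSE or ERSE-II match, 9 rose and 1 fell, and their median was 0.51. Of the 27 measured genes with a window but no match, 23 rose and 1 fell, with a median of 0.34. Both sets ran widely, from -0.28 to 0.64 and from -0.24 to 0.87, and their difference was not tested.

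Among the 13 chaperones and their partners, 12 rose and 1 did not pass. HSPA5 encodes BiP, the Hsp70 chaperone of the endoplasmic reticulum that also holds the stress sensors inactive. Its level was 13.13, 13.11 and 13.08 in shTP63 against 12.51, 12.53 and 12.60 in shControl (log2 intensity). The groups were far apart and tight, and HSPA5 rose by 0.56 ± 0.045 (SE), or 1.47-fold (limma adjusted p = 2.16e-05). HYOU1, a large relative of Hsp70 that exchanges nucleotide on BiP, stood at 10.45, 10.48 and 10.52 in shTP63 and at 9.81, 9.83 and 9.89 in shControl. It rose by 0.64 ± 0.045 (SE), with no overlap between the groups (limma adjusted p = 1.2e-05).

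HSPA13, a smaller Hsp70-like protein of microsomes, had the largest rise of the chaperones. Its values were 10.00, 10.06 and 10.08 in shTP63 against 9.17, 9.27 and 9.24 in shControl. That is a difference of 0.82 ± 0.047 (SE), or 1.76-fold (limma adjusted p = 4.32e-06). HSP90B1, which encodes GRP94, the Hsp90 of this compartment, measured 12.92, 12.98 and 12.87 in shTP63 against 12.59, 12.65 and 12.57 in shControl. All shTP63 values were the higher ones, by 0.32 ± 0.047 (SE) on average (limma adjusted p = 0.000601).

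The J-domain proteins, which deliver clients to BiP, rose in 3 of 4. DNAJB11, a cofactor that binds unfolded clients, was at 11.31, 11.29 and 11.28 in shTP63 against 10.64, 10.66 and 10.71 in shControl, and rose by 0.63 ± 0.043 (SE, limma adjusted p = 1.03e-05). DNAJC3, also known as p58IPK, rose by 0.42 ± 0.051 (SE) and DNAJC10, which reduces disulfides of proteins bound for degradation, by 0.43 ± 0.044 (SE). DNAJB9, whose transcription is widely used as a readout of the IRE1 and XBP1 branch, did not pass. Its values were 8.13, 8.08 and 8.04 in shTP63 and 8.05, 8.22 and 8.26 in shControl. The groups overlapped, with a difference of -0.09 ± 0.061 (SE, limma adjusted p = 0.269). It passed as lower after each array was centred on its median, by -0.20 (limma adjusted p = 0.0275), after quantile normalization over all probe sets, by -0.18 (0.0353), and without shControl replicate 1, by -0.16 (0.0476).

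**Figure D3:**
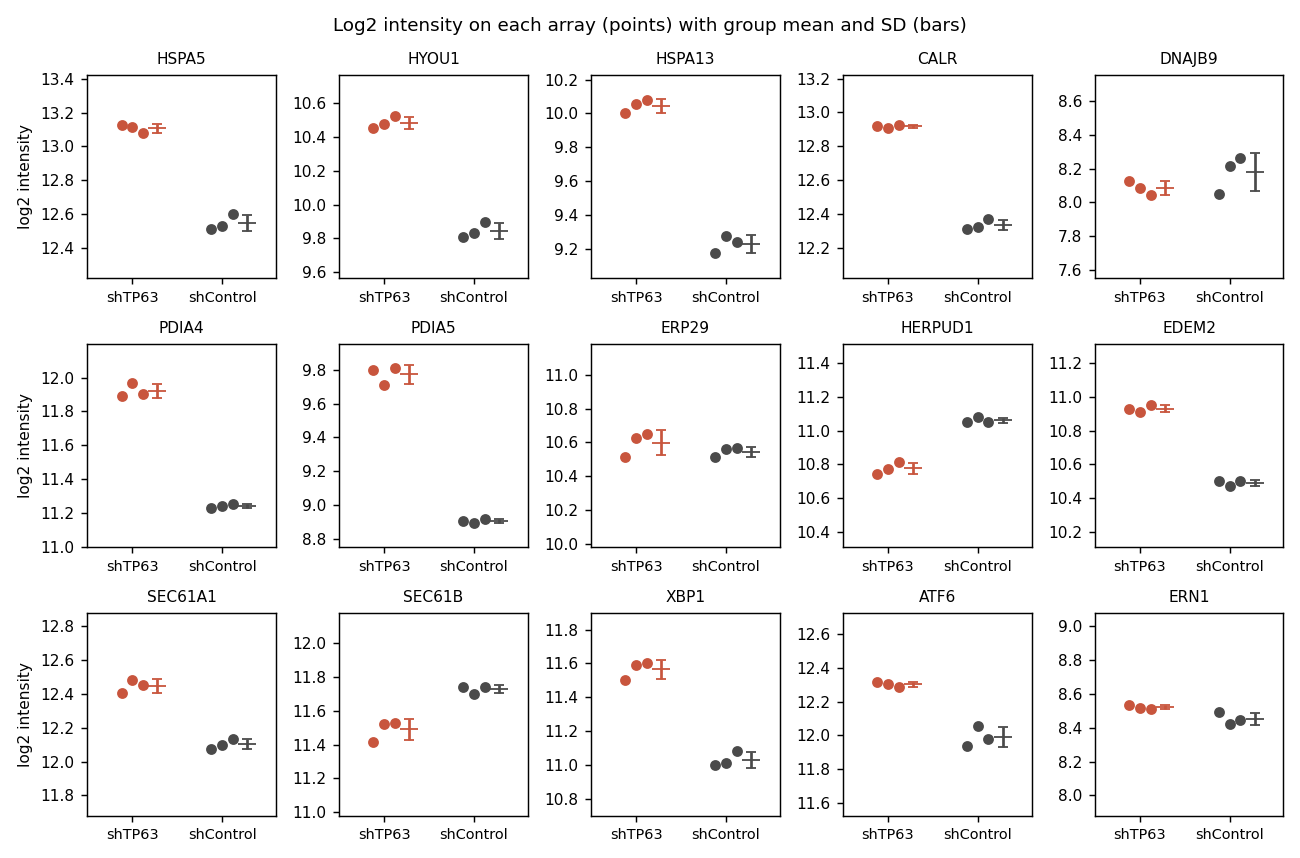
Log2 intensity on each array for 15 of the genes, with shTP63 left of shControl and a bar for the group mean and SD (n = 3). Each panel spans the same height of 1.2 log2 units. HSPA5, HYOU1, HSPA13, CALR, PDIA4 and PDIA5 show a wide gap with shTP63 on top, HERPUD1 and SEC61B show the gap the other way, and DNAJB9 and ERP29 overlap.

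The lectin chaperones calreticulin and calnexin hold glycoproteins through a folding cycle. CALR, which encodes the soluble one, was at 12.92, 12.91 and 12.93 in shTP63 against 12.31, 12.32 and 12.37 in shControl. It rose by 0.58 ± 0.041 (SE, limma adjusted p = 1.19e-05), and its shTP63 values spread by an SD of 0.0098. CANX, which encodes the membrane-bound one, measured 13.34, 13.34 and 13.29 in shTP63 against 13.10, 13.15 and 13.09 in shControl. The groups were separate but close, and CANX rose by 0.21 ± 0.043 (SE, limma adjusted p = 0.0037), a call lost after centring each array on its median (0.10, adjusted p = 0.0925). Of the small stress-inducible proteins, SDF2L1, a partner of DNAJB11, rose by 0.48 ± 0.048 (SE). MANF, a factor of this compartment that is also secreted, rose by 0.53 ± 0.057 (SE) and CRELD2 by 0.33 ± 0.062 (SE). Their limma adjusted p ranged from 6.68e-05 to 0.00224.

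Disulfide isomerases form and rearrange the disulfide bonds of secreted proteins, and 5 of the 6 measured rose. PDIA5 had the largest rise of all 39 genes. It stood at 9.80, 9.71 and 9.81 in shTP63 against 8.91, 8.90 and 8.92 in shControl. The difference was 0.87 ± 0.045 (SE), or 1.82-fold (limma adjusted p = 2.53e-06), which ranked 124 among the rises of all genes tested. PDIA4, which encodes ERp72, was at 11.89, 11.97 and 11.91 in shTP63 and 11.23, 11.24 and 11.25 in shControl, and rose by 0.68 ± 0.043 (SE, limma adjusted p = 6.58e-06). PDIA6, which encodes P5, measured 12.47, 12.55 and 12.53 in shTP63 against 11.93, 11.97 and 11.97 in shControl. It rose by 0.56 ± 0.043 (SE, limma adjusted p = 1.81e-05), and neither it nor PDIA4 had overlapping groups.

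The other isomerase genes moved less. P4HB, the founding protein disulfide isomerase and also a subunit of collagen prolyl hydroxylase, was at 12.95, 13.05 and 13.04 in shTP63 against 12.71, 12.77 and 12.75 in shControl. It rose by 0.27 ± 0.047 (SE, limma adjusted p = 0.00147), and its other probe set, 8019762, rose by 0.22 ± 0.047 (SE, limma adjusted p = 0.00586 over all probe sets with 1 gene). ERP44, which retrieves clients from the early secretory pathway, rose by 0.36 ± 0.044 (SE, limma adjusted p = 0.00021). ERP29, a relative of these enzymes without their active site, measured 10.52, 10.63 and 10.65 in shTP63 against 10.51, 10.56 and 10.57 in shControl. Its groups overlapped, and the difference of 0.05 ± 0.050 (SE) did not pass (limma adjusted p = 0.433).

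Of the 10 degradation genes 8 rose and 1 fell. HERPUD1 encodes a membrane protein with a ubiquitin-like domain that assembles the degradation complex around the ligase HRD1, and it is known to be induced strongly by stress of this compartment. It was at 10.75, 10.77 and 10.81 in shTP63 against 11.05, 11.08 and 11.05 in shControl. Every shTP63 value was below every shControl value, and HERPUD1 fell by 0.28 ± 0.042 (SE, log2), with a limma adjusted p of 0.00058. SEL1L, the adaptor of HRD1, stood at 10.86, 10.97 and 10.92 in shTP63 against 10.52, 10.62 and 10.55 in shControl, the opposite direction, and rose by 0.35 ± 0.049 (SE, limma adjusted p = 0.000398). SYVN1, which encodes HRD1 itself, rose by 0.18 ± 0.044 (SE, limma adjusted p = 0.0101), a call lost after centring (0.07, adjusted p = 0.22).

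The EDEM proteins trim mannose from glycoproteins that fail to fold and so mark them for removal. EDEM2 was at 10.93, 10.91 and 10.95 in shTP63 against 10.50, 10.47 and 10.50 in shControl, and rose by 0.44 ± 0.041 (SE, limma adjusted p = 4.75e-05). EDEM3 measured 10.36, 10.48 and 10.40 in shTP63 against 10.01, 10.03 and 10.02 in shControl, and rose by 0.39 ± 0.045 (SE, limma adjusted p = 0.000147). EDEM1, a well-known XBP1 target, rose by 0.18 ± 0.052 (SE, limma adjusted p = 0.0194). That call was the least firm of the group. It was lost without shTP63 replicate 2 (adjusted p = 0.0663), without shTP63 replicate 3 (0.0595), without shControl replicate 1 (0.0652), without shControl replicate 3 (0.0515) and after centring (difference 0.08, adjusted p = 0.253).

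Derlins sit beside HRD1 and help move substrates across the membrane. DERL1 rose by 0.30 ± 0.046 (SE, limma adjusted p = 0.000689) and DERL2 by 0.25 ± 0.042 (SE, limma adjusted p = 0.00135). DERL3, the dimmest of the 39, measured 7.34, 7.64 and 7.69 in shTP63 and 7.55, 7.33 and 7.40 in shControl. The groups overlapped, with a difference of 0.13 ± 0.095 (SE, limma adjusted p = 0.327) that passed only without shTP63 replicate 1, the low array of its group (0.24, adjusted p = 0.03). SELENOS, a selenoprotein that tethers the extracting ATPase to the derlins, rose by 0.20 ± 0.048 (SE, limma adjusted p = 0.00761), a call lost after centring (0.10, adjusted p = 0.113).

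All 6 measured translocation genes passed, 5 as higher and 1 as lower. The channel itself is built of SEC61A1, SEC61B and SEC61G products, and the measured ones, SEC61A1 and SEC61B, moved in opposite directions. SEC61A1, the pore subunit, was at 12.40, 12.48 and 12.45 in shTP63 against 12.08, 12.10 and 12.13 in shControl, and rose by 0.34 ± 0.044 (SE, limma adjusted p = 0.000259). SEC61B, a small tail-anchored subunit, was at 11.42, 11.52 and 11.53 in shTP63 against 11.74, 11.70 and 11.74 in shControl. Its groups did not overlap, and SEC61B fell by 0.24 ± 0.047 (SE, log2), with a limma adjusted p of 0.00317.

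SEC62 and SEC63 serve the entry of proteins after their synthesis, and SEC63 also recruits BiP. SEC63 measured 12.09, 12.18 and 12.17 in shTP63 against 11.80, 11.79 and 11.80 in shControl, and rose by 0.34 ± 0.044 (SE, limma adjusted p = 0.00025). SEC62 rose by 0.25 ± 0.053 (SE, limma adjusted p = 0.00504), a call lost after centring (0.14, adjusted p = 0.0582). SSR1 and SSR3 encode subunits of the translocon-associated complex. SSR1 rose by 0.39 ± 0.044 (SE, limma adjusted p = 0.000131) and SSR3 by 0.22 ± 0.048 (SE, limma adjusted p = 0.00524), the second of which was lost after centring (0.11, adjusted p = 0.0914).

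Of the 4 stress sensors and their effectors, XBP1, ATF6 and WFS1 rose. XBP1, the transcription factor downstream of IRE1, was at 11.50, 11.59 and 11.60 in shTP63 against 11.00, 11.01 and 11.08 in shControl. It rose by 0.54 ± 0.048 (SE), or 1.45-fold (limma adjusted p = 4.12e-05), in total mRNA, and its spliced form was not analysed here. ATF6 stood at 12.31, 12.31 and 12.29 in shTP63 against 11.94, 12.06 and 11.98 in shControl, all shTP63 values being higher, by 0.31 ± 0.046 (SE, limma adjusted p = 0.000609). WFS1, a membrane protein that restrains ATF6 and takes part in calcium handling, was at 8.82, 8.90 and 9.00 in shTP63 against 8.34, 8.39 and 8.57 in shControl. It rose by 0.47 ± 0.071 (SE, limma adjusted p = 0.000644), with the widest spread of the 3.

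ERN1, which encodes IRE1, measured 8.53, 8.52 and 8.51 in shTP63 against 8.49, 8.42 and 8.45 in shControl. The values did not overlap, yet the difference of 0.07 ± 0.042 (SE) was small and did not pass (limma adjusted p = 0.247). These are levels of mRNA, which do not show whether a sensor is active.

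Further genes of the pathway, from lists outside the 42 that include some cytosolic proteins, were also mostly higher. Of 75 measured in 5 lists, 52 rose and 6 fell, and their median was 0.26, beside 16.4% higher and 25.1% lower over all genes tested and 25.3% and 44% in the brightest bin. Among 23 genes of oxidative folding and prolyl isomerisation 20 rose and 3 did not pass. ERO1A, the oxidase that recharges disulfide isomerases, averaged 12.45 ± 0.056 in shTP63 and 11.72 ± 0.072 in shControl (SD, n = 3), and rose by 0.74 ± 0.053 (SE). The sulfhydryl oxidase QSOX1 rose by 0.68 ± 0.048 (SE) and the thioredoxin-like TXNDC12 by 0.43 ± 0.043 (SE). Their limma adjusted p ranged from 1.19e-05 to 6.83e-05.

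Glycan trimming and lectin genes rose in 9 of 11, with 1 fall. UGGT1, which returns misfolded glycoproteins to calnexin and calreticulin, rose by 0.45 ± 0.043 (SE), the glucosidase subunit GANAB by 0.40 ± 0.041 (SE) and the lectin MLEC by 0.41 ± 0.046 (SE). The fall was that of NGLY1, the glycanase that acts in the cytosol, which fell by 0.35 ± 0.046 (SE) and was named after its value was seen. Of 21 further translocation, signal peptidase and oligosaccharyltransferase genes 14 rose and 2 fell. The transferase subunit RPN2 rose by 0.47 ± 0.041 (SE), the alternative pore subunit SEC61A2 by 0.63 ± 0.057 (SE) and SRPRB, a subunit of the signal recognition particle receptor, by 0.46 ± 0.042 (SE). SRP72 and SRP68, protein subunits of the cytosolic signal recognition particle picked for mention after their values were seen, made up the 2 falls: SRP72 fell by 0.28 ± 0.048 (SE) and SRP68 fell by 0.28 ± 0.046 (SE). The limma adjusted p of these 9 genes ranged from 3.1e-05 to 0.00133.

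Of 7 further sensors and processing proteases 6 rose and 1 did not pass. EIF2AK3, which encodes PERK, averaged 9.31 ± 0.038 in shTP63 and 9.04 ± 0.016 in shControl (SD, n = 3), and rose by 0.27 ± 0.042 (SE, limma adjusted p = 0.000827). MBTPS2, a protease that cuts ATF6, rose by 0.42 ± 0.055 (SE) and CREB3L2, a transcription factor cut in the same way, by 0.44 ± 0.049 (SE).

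Among 13 further degradation factors there were 3 rises and 3 falls, near the shares over all genes tested (16.4% higher and 25.1% lower), and the median was -0.06. Most of the 13 lay in the brightest bin, where 25.3% of genes were called higher and 44% lower. UBE2J1, a ubiquitin-conjugating enzyme of this membrane, fell by 0.58 ± 0.047 (SE), with a limma adjusted p of 2.25e-05. UBE2G2, another ubiquitin-conjugating enzyme, fell by 0.22 ± 0.065 (SE), and HERPUD2, a relative of HERPUD1, fell by 0.14 ± 0.044 (SE). Both were picked for mention after their values were seen. AUP1, which recruits UBE2G2, rose by 0.31 ± 0.044 (SE) and the membrane ligase MARCHF6 by 0.34 ± 0.049 (SE).

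The integrated stress response, the branch through ATF4 and CHOP, had more falls than rises. Apart from ATF4, whose probe sets disagreed, 6 of 10 genes were called lower and 1 higher, beside 25.1% lower and 16.4% higher over all genes tested, and their median was -0.25. They lay in the middle, next and brightest bins of mean level, where 936 of 3680, 1583 of 3681 and 1618 of 3681 genes were called lower. The rise was that of CEBPB, a transcription factor, by 0.15 ± 0.048 (SE, limma adjusted p = 0.0381), named after its value was seen. DDIT3, which encodes CHOP, averaged 8.65 ± 0.113 in shTP63 and 9.21 ± 0.018 in shControl (SD, n = 3), and fell by 0.56 ± 0.059 (SE, limma adjusted p = 9.22e-05). TRIB3, a target of CHOP and ATF4, fell by 0.44 ± 0.044 (SE, limma adjusted p = 7.01e-05), and DDIT4, an inhibitor of mTOR signalling, fell by 0.67 ± 0.049 (SE, limma adjusted p = 1.42e-05). ATF4 was named after its values were seen. Its brighter probe set, 8180337, averaged 10.85 in shTP63 and 11.20 in shControl and fell by 0.36, whereas 8073148 averaged 11.17 in shTP63 and 10.60 in shControl and rose by 0.57, so no direction is given for ATF4.

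**Figure D4:**
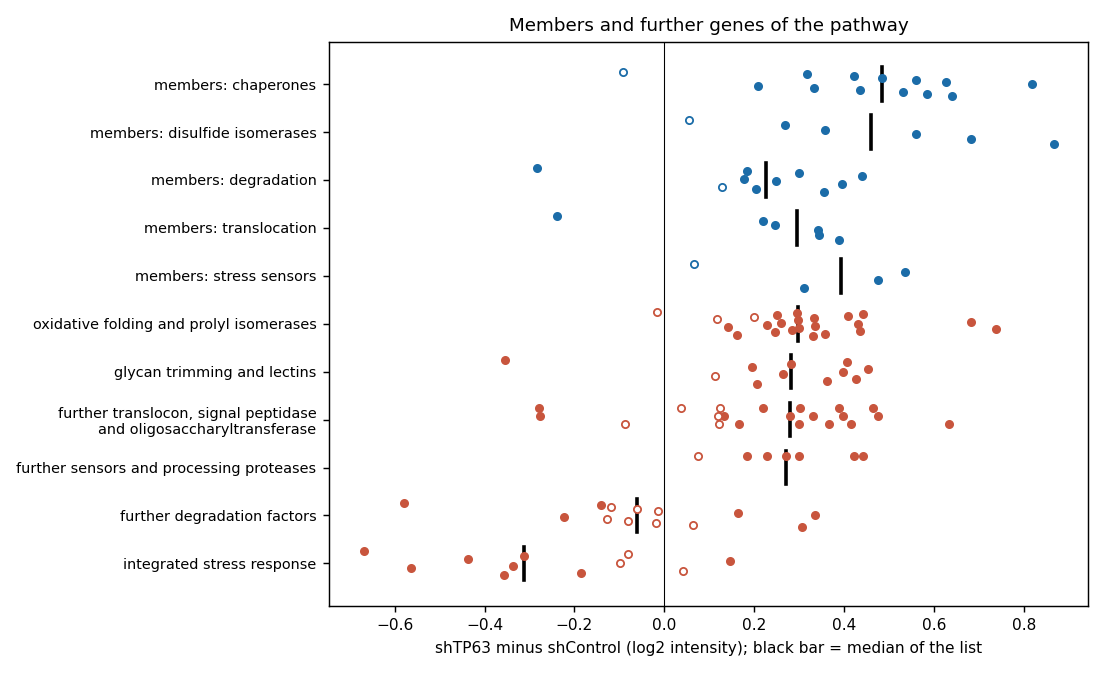
Differences shTP63 minus shControl (log2 intensity) of the 39 measured genes by role (blue) and of further genes of the pathway by list (red), filled where the limma adjusted p was under 0.05, with a black bar at the median of each list. Medians run from 0.23 to 0.48 over the 5 roles and from 0.27 to 0.30 in 4 further lists, and lie at -0.06 for further degradation factors and at -0.31 for the integrated stress response, drawn with the brighter probe set of ATF4.

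Markers of the line were present in both groups. The summed intensity of 10 measured keratinocyte markers was 15.72 to 15.76 in shTP63 and 15.87 to 15.93 in shControl (log2), with SFN, KRT5, KRT14 and PKP1 lower in shTP63 and LAMB3, CDH1 and ITGB4 higher by the limma test. SFN, which encodes stratifin, had the largest change of the list and fell by 0.60 ± 0.042 (SE, limma adjusted p = 1.19e-05). Markers of plasma cells and other professional secretory cells gave sums of 10.69 to 10.80 in shTP63 and 10.97 to 11.01 in shControl over 7 genes, of which 4 lay under the background level. In that list MZB1 and JCHAIN averaged 6.42 and 4.20 in shTP63 against 6.25 and 4.17 in shControl, all under that level. PRDM1, a transcription factor, passed as higher, by 0.70 ± 0.060 (SE, limma adjusted p = 3.16e-05). SDC1, a syndecan that epithelia also express, was the brightest of the list and fell by 0.41 ± 0.050 (SE, limma adjusted p = 0.000195). Sums were 10.33 to 10.43 in shTP63 and 10.26 to 10.31 in shControl over 9 fibroblast markers (4 under the background level), and 11.06 to 11.14 in shTP63 and 10.69 to 10.80 in shControl over 8 immune and endothelial markers (5 under it). Of the fibroblast markers COL1A1 and FAP passed as higher and DCN as lower. FAP (mean level 5.21) and DCN (6.29) lay under the background level. Of the immune and endothelial markers CD68, a lysosomal protein, rose by 0.75 ± 0.056 (SE, limma adjusted p = 1.5e-05) and CD14, a receptor for lipopolysaccharide, by 0.70 ± 0.064 (SE, limma adjusted p = 4.25e-05). VWF, with a mean level of 6.46 that was under the background level, fell by 0.18 ± 0.048 (SE, limma adjusted p = 0.0135). The other 5 did not pass. The immune marker PTPRC averaged 4.27 in shTP63 and 4.31 in shControl, under the background level. CDH5, the brightest of that list, averaged 9.57 in shTP63 and 9.50 in shControl, above the background level, and did not pass. The part of these shifts in the results above was not tested. In bulk samples a change in RNA per cell and a change in the share of cells cannot be told apart.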

How the data were processed

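Biotinylated RNA of 6 HaCaT samples was read in 1 colour on 6 arrays, and groups and replicate numbers came from the sample titles. The deposited table holds linear intensities that the authors made with RMA in R 2.15.1, per the submitters' processing notes. RMA subtracts background, equalises the arrays and combines the probes of a set. Array medians over all probe sets were 187 to 190 in shTP63 and 173 to 177 in shControl. An offset between the groups thus remained in the deposited values, with each shTP63 median the higher. Log2 was taken of the intensities here. The plan had left the scale open, with log2 to be taken of linear values. Of 32321 probe sets, 19158 carried 1 gene in the platform annotation, 1388 several and 11775 none, and the brightest single-gene probe set by mean level stood for each of 18404 genes (637 had several). The array build is not given in the sources used here. Promoters came from RefSeq, GRCh38.p14.

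The comparison used lmFit and eBayes of limma 3.58.1 under R 4.3.3, two-sided and without covariates, and was tested on simulated data. P-values of all genes were adjusted by Benjamini-Hochberg. The 42 genes, the further lists and the alternatives were chosen with earlier results of these data known. All of the 42 are named, and of each further list up to 3 genes with the smallest adjusted p. Other names are marked as chosen after their values were seen, apart from the cell markers, which stand as a list. The alternatives took the replicate number as a block, 4 other scalings, leaving out the dimmest 40% of genes, the mean of all probe sets, another variance prior, array weights, a threshold of 0.01 and each array left out. Precision is set by the 3 arrays of each group, since there are no counts (median within-group SD 0.065, median SE 0.053).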

Additional observations from a re-analysis of the deposited data

How the results depend on the processing

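The count of genes that rose, 33, was 27 after centring each array on its median and 31 to 34 under the other alternatives, and the count that fell, 2, was 2 or 3. Leaving out 1 array gave 32 to 34 rises, 2 to 3 falls, medians of 0.33 to 0.36 and 6483 to 7290 calls over all genes, against 7634. The median difference, 0.34, was 0.24 after centring, 0.39 after quantile normalization over all probe sets and 0.41 after cyclic loess, where the median of all genes was -0.12, -0.08 and 0.00. Relative to all genes the members' median thus lay 0.36 higher both as deposited and with centring, 0.47 higher with that quantile normalization and 0.41 higher with cyclic loess. Of the 35 genes that passed, 29 kept their call under all alternatives and none changed sign. After centring the differences of ERP29 (-0.053) and ERN1 (-0.041) changed sign without passing, and after cyclic loess ERP29 passed as higher (0.15, adjusted p = 0.0384). All 18 further genes named by the rule kept their calls. With the replicate number as a block 33 genes rose and 2 fell, with a median of 0.34, and 7165 of all genes passed. The numbers give no pairing, since deviations of same-numbered samples correlated at -0.15, -0.04 and 0.13. Dim genes are compressed toward background, which limits DERL3 most.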

Other observations

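The stress elements also occurred in promoter windows of other genes on the array, which were looked at after the data were examined. An ERSE or ERSE-II match was found for 26 tested genes outside the 42. Of these 6 rose and 5 fell, near the shares over all genes tested (16.4% higher and 25.1% lower). Their median was -0.02, against -0.01 over all genes tested. SHCBP1 had the largest rise of the 26, 0.42 ± 0.064 (SE), and EIF2A the largest fall, -0.48 ± 0.046 (SE). Among those that rose, FICD, which encodes the enzyme that modifies and silences BiP, averaged 8.75 ± 0.050 in shTP63 and 8.40 ± 0.054 in shControl (SD, n = 3, log2 intensity), and rose by 0.34 ± 0.049 (SE, limma adjusted p = 0.000457). NUCB1, a calcium-binding protein of the Golgi, averaged 11.83 ± 0.034 in shTP63 and 11.48 ± 0.042 in shControl and rose by 0.34 ± 0.045 (SE, limma adjusted p = 0.0003). Among those that fell, SERP1, which encodes a small protein of the translocon, averaged 11.21 ± 0.044 in shTP63 and 11.56 ± 0.108 in shControl (limma adjusted p = 0.00137).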
